A study of Homo sapiens with 4 samples.

Results

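The epithelial integrin subunits described here are the products of 10 genes, ITGA2, ITGA3, ITGA5, ITGA6, ITGAV, ITGB1, ITGB4, ITGB5, ITGB6 and ITGB8. They were chosen by name, and every non-control array probe whose accession belongs to one of them was kept, which gave 11 of the 34127 probes (10 of the 19483 named genes with a probe). ITGA6 had a pair of probes and each of the other genes had 1. Cells of HuCCT1, an established human intrahepatic cholangiocarcinoma line, received 30 nM of 1 of 4 RNAs: Pre-miR-376c (a mimic of the mature microRNA miR-376c-3p), Pre-miR negative control, siGRB2 (called siGRB2-2 in the methods, an siRNA against the adaptor GRB2) or siRNA negative control. All 4 transfectants received 5 ng/ml EGF for 24 h in 0.1% serum, starting 24 h after transfection, and 200 ng of RNA from each was labelled with a single dye. Each transfection was measured on 1 array, so no test was possible, every comparison is between arrays rather than replicated conditions, and fewer cells of a type cannot be told apart from less RNA per cell.

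Integrins are transmembrane receptors made of 1 alpha and 1 beta subunit, and they join the extracellular matrix to the actin or keratin cytoskeleton. In epithelia, the beta1 subunit pairs with alpha2 to bind collagen, with alpha3 and alpha6 to bind laminin and with alpha5 to bind fibronectin, and the beta4 subunit pairs with alpha6 in the hemidesmosome. The alphav subunit pairs with beta5, a vitronectin receptor, and with beta6 and beta8, which bind and activate latent TGF-beta. The arrays addressed which mRNAs differed after Pre-miR-376c and after siGRB2 in cells that migrate towards EGF.

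The transfected microRNA is shown with its seed, bases 2 to 8 from the 5′ end, in capitals. Its sequence comes from RefSeq (GRCh38.p14), where it lies at chr14:101039732-101039752 on the plus strand.
hsa-miR-376c-3p: aACAUAGAggaaauuccacgu

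RefSeq start-site windows (250 bases before to 50 after a gene start, GRCh38.p14) were held for 8 of the 10 genes, in 13 windows, and not for ITGA3 and ITGB4. On either strand, the AP-1 motif TGANTCA occurred in 1 of these 13 windows, that of ITGA5, and in 7.71% of all 35116 windows. The GC box GGGCGG occurred in 9 of the 13 windows, those of ITGA2, ITGA5, ITGA6, ITGB1, ITGB5 and ITGB8, and in 45.0% of all windows, and neither motif was in the windows of ITGAV and ITGB6. The match nearest to and before a start site is printed in capitals, in the direction of transcription, for the 4 genes with a match whose level differed by over 0.5 on the log2 scale from that on the matched control array. The matches are descriptions of the sequence and were not tested as binding sites. The ITGA5 stretch lies at chr12:54419266-54419284 on the minus strand and ends at the start base, the ITGA6 stretch at chr2:172427519-172427548 on the plus strand, the ITGB5 stretch at chr3:124887365-124887394 on the minus strand and the ITGB8 stretch at chr7:20330839-20330868 on the plus strand, where the motif reads on the opposite strand.
ITGA5: tcctccccgcgtTGAGTCA
ITGA6: gagggtggggagGGGCGGggccggcgtcct
ITGB5: gaggaagggaagGGGCGGaggccaggggca
ITGB8: accacccctctcCCGCCCatcgccggcctc

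Levels are log2 processed intensities minus the 75th percentile of the same array, so 0 is that percentile. All 11 integrin probes were well above background on all 4 arrays and none was saturated. The error given for a level is the scanner software's own, 0.144 to 0.151 on the log2 scale, and the error of a difference combines those of its 2 levels (0.20 to 0.21). This error was nearly the same for all 11 probes, so beyond or within the error amounts to a nearly fixed cutoff of 0.20 to 0.21. For a probe with 10 spots it is the error of a single spot and not of their mean. It measures neither the spread between spots (SD 0.022 to 0.055 where 10 were printed) nor the spread between cultures. A difference of at least 1 on the log2 scale (2-fold) is counted as called. The siRNA negative control array stood apart from the others: the 3 pairs of arrays that include it held 1247 to 1749 probes at least 2-fold apart, against 231 to 283 in the 3 pairs without it, so each treatment is given against both negative controls. GRB2, the target of the siRNA, had levels of 0.62 with Pre-miR negative control, 0.07 with Pre-miR-376c, −0.10 with siRNA negative control and −0.65 with siGRB2. It was lowest with siGRB2, at −0.55 from the siRNA negative control and −1.27 from the Pre-miR negative control. The label of the cells was checked with markers: all 9 biliary epithelial marker genes, among them KRT7, KRT19 and EPCAM, were detected on all 4 arrays. Of the markers of other cell types, ALB (hepatocytes), COL1A2 and PDGFRB (fibroblasts) were detected on none. CD68, PTPRC and VWF each had a probe that was detected on all 4, CD3E was detected on 3 and PECAM1 had a probe detected on 2.

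No integrin probe was called in either treatment. With Pre-miR-376c against the Pre-miR negative control, 0 of the 11 probes were at least 2-fold higher, where 1.57% of all probes were, and 0 were at least 2-fold lower (1.47% of all probes). ITGA6 was higher on both its probes and ITGB8 was also higher, whereas ITGB6, ITGA5 and ITGB4 were lower, these 6 probes lying beyond their scanner error (47.7% of all probes did). With siGRB2 against the siRNA negative control, 0 were at least 2-fold higher (6.71% of all probes) and 0 lower (3.11%). ITGA5, ITGB5, ITGA3, ITGB6 and ITGB4 were higher and ITGA6 on 1 of its probes and ITGAV were lower beyond the error (71.7% of all probes). The only called difference was between the negative controls, where 1 probe of ITGA6 was higher with siRNA negative control (3.07% of all probes) and 0 were lower (6.10%). Against the control of the other transfection, siGRB2 gave 0 higher (1.93%) and 0 lower (1.01%), and Pre-miR-376c gave 0 higher (3.92%) and 0 lower (3.35%).

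**Figure D1:**
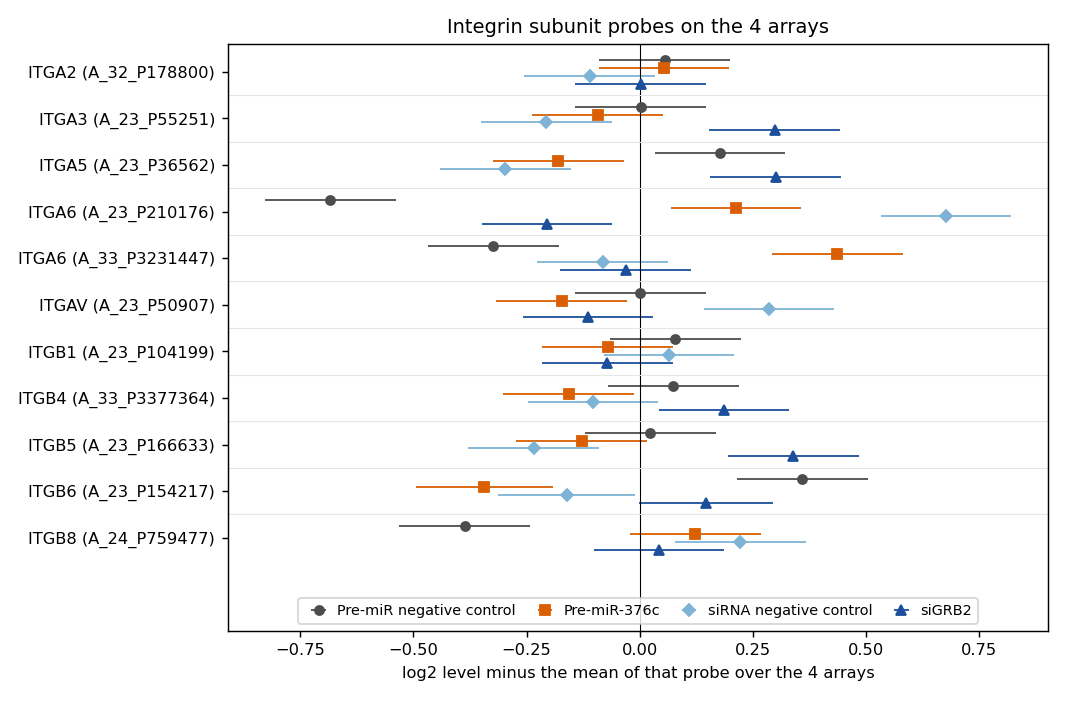
Levels of the 11 integrin probes on the 4 arrays, as the log2 level minus the probe's own mean over the arrays (x axis, log2 units), with the scanner software's error as bars. The ITGA6 probe A_23_P210176 spans 1.36 from the Pre-miR negative control to the siRNA negative control, and the 4 levels of ITGB1 span 0.15.

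Among the laminin-binding subunits, ITGA6, the alpha partner of beta4 in hemidesmosomes and of beta1 elsewhere, varied most. Its probe A_23_P210176 had levels of 1.36 with Pre-miR negative control, 2.25 with Pre-miR-376c, 2.72 with siRNA negative control and 1.84 with siGRB2. The negative controls were the lowest and the highest of the 4, with both treatments between them. Pre-miR-376c was 0.90 ± 0.20 (scanner error, log2 difference; 1.86-fold) above the Pre-miR negative control and 0.46 below the siRNA negative control. siGRB2 was 0.88 ± 0.20 below the siRNA negative control, or 54.3% of its level, and 0.48 above the Pre-miR negative control. The sign of either treatment for this probe thus turned with the control used.

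The other ITGA6 probe, A_33_P3231447, had levels of 0.35, 1.11, 0.59 and 0.64 in the same order. Pre-miR-376c was the highest of the 4 arrays here, 0.76 ± 0.20 above the Pre-miR negative control (1.69-fold) and 0.52 above the siRNA negative control. siGRB2 differed from the siRNA negative control by 0.05, within the error, and this sign turned under 4 of the 7 other scalings or spot selections. Against the Pre-miR negative control, both ITGA6 probes gave similar differences with Pre-miR-376c, 0.14 apart with a combined error of 0.29. In each comparison with the siRNA negative control the probes were 0.93 to 1.12 apart, beyond that error. Which transcripts each probe matches was not examined here, and no mean of the 2 probes is given.

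ITGA3, the alpha subunit of the laminin receptor alpha3beta1, had levels of 1.75 with Pre-miR negative control, 1.66 with Pre-miR-376c, 1.55 with siRNA negative control and 2.05 with siGRB2. siGRB2 was the highest array, by 0.50 ± 0.20 against the siRNA negative control (1.42-fold) and by 0.30 against the Pre-miR negative control, both beyond the error. With Pre-miR-376c it was 0.10 below its control, within the error. ITGB4, the beta subunit of the hemidesmosomal integrin, had levels of 5.35, 5.12, 5.17 and 5.46. siGRB2 was again the highest array, by 0.29 and 0.11 against the siRNA and the Pre-miR negative control, and Pre-miR-376c was the lowest, by 0.23 against the Pre-miR negative control and 0.05 against the siRNA negative control. Each of these treatments lay beyond the error against 1 of the 2 controls. Against the Pre-miR negative control, the difference of ITGA6 with Pre-miR-376c minus that of its partner ITGB4 was 1.13 on the first ITGA6 probe and 0.99 on the second, with a combined error of 0.29. Against the siRNA negative control these values were −0.41 and 0.57, so the sign on the first probe turned with the control.

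Of the collagen and fibronectin receptors, ITGA2 (collagen) had levels of −0.42, −0.42, −0.59 and −0.48, with no 2 neighbouring arrays beyond the error. ITGA5 (fibronectin) had levels of −1.32 with Pre-miR negative control, −1.68 with Pre-miR-376c, −1.80 with siRNA negative control and −1.20 with siGRB2. It was 0.36 ± 0.20 lower with Pre-miR-376c than with its control (78.1% of it) and 0.60 ± 0.20 higher with siGRB2 than with its control (1.51-fold). Against the control of the other transfection both treatments were 0.12 higher, within the error. The negative controls themselves differed for ITGA5 by 0.47.

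ITGB1, the shared beta subunit, was printed in 10 spots per array, and so was ITGAV, which allows the spread between spots to be given. ITGB1 had a mean level of 1.34 ± 0.036 (SD of 10 spots) with Pre-miR negative control, 1.19 ± 0.041 with Pre-miR-376c, 1.32 ± 0.032 with siRNA negative control and 1.19 ± 0.022 with siGRB2. The lowest spot of either control (1.27) was above the highest spot of either treatment (1.25), so that treated and control spots did not overlap. The share of other probes printed in 10 spots that split this way is not given here. Whether the split is unusual therefore cannot be said. The differences from the matched controls, −0.15 with Pre-miR-376c and −0.14 with siGRB2, were within the scanner error of 0.20. Spots of 1 array share a hybridization and are not replicates of a transfection, and their spread leaves out the scaling between arrays. Scaling each array to its median moved these differences to −0.04 and −0.42.

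**Figure D2:**
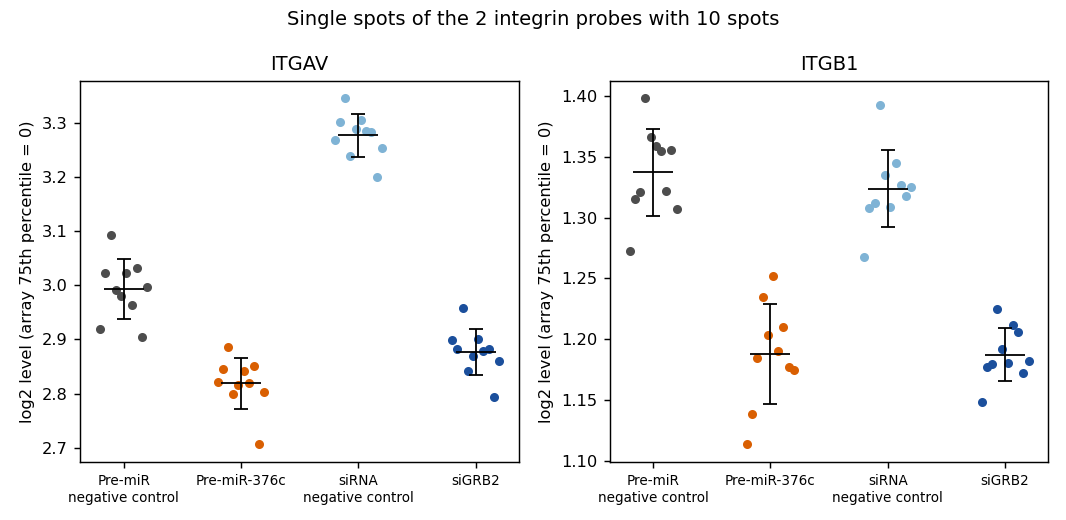
Log2 levels (y axis, array 75th percentile = 0) of the 10 spots of ITGAV and ITGB1 on each array, with the mean and SD over spots in black. ITGB1 spots reach at most 1.25 with either treatment and lie at 1.27 or above with either negative control, while the ITGAV spots with siRNA negative control lie at 3.20 or above, higher than on the other arrays.

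ITGAV, the common alpha partner of beta5, beta6 and beta8, had a mean level of 2.99 ± 0.055 with Pre-miR negative control, 2.82 ± 0.047 with Pre-miR-376c, 3.28 ± 0.040 with siRNA negative control and 2.88 ± 0.043 with siGRB2. The siRNA negative control was highest, and its lowest spot (3.20) was above the highest spot of the other arrays (3.09). The highest spot with Pre-miR-376c (2.89) was also below the lowest with Pre-miR negative control (2.90). As for ITGB1, the share of other probes with 10 spots that split in these ways is not given. Whether either split is unusual cannot be said. siGRB2 was 0.40 ± 0.20 below the siRNA negative control and 0.12 below the Pre-miR negative control, and Pre-miR-376c was 0.46 and 0.17 below them. For both treatments, only the difference from the siRNA negative control exceeded the scanner error.

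The 3 beta partners of alphav did not move alike. ITGB5 (vitronectin receptor) had levels of 2.52 with Pre-miR negative control, 2.36 with Pre-miR-376c, 2.26 with siRNA negative control and 2.83 with siGRB2. siGRB2 was highest, by 0.57 ± 0.20 against its control (1.49-fold) and 0.32 against the Pre-miR negative control, and Pre-miR-376c lay between the controls. ITGB6 had levels of −2.81, −3.51, −3.33 and −3.02. It was lowest with Pre-miR-376c, 0.70 ± 0.21 below the Pre-miR negative control (61.4% of it), but within the error of the siRNA negative control (0.18 below), and siGRB2 lay between the controls. ITGB8 had levels of −0.75, −0.25, −0.15 and −0.33. Here the Pre-miR negative control was lowest and the other 3 arrays lay within 0.18 of each other, so that the difference of 0.51 ± 0.20 with Pre-miR-376c against its control (1.42-fold) was −0.10 against the siRNA negative control. With siGRB2, the difference of ITGAV minus that of ITGB5 was −0.97 with the siRNA and −0.43 with the Pre-miR negative control, with a combined error of 0.29.

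**Figure D3:**
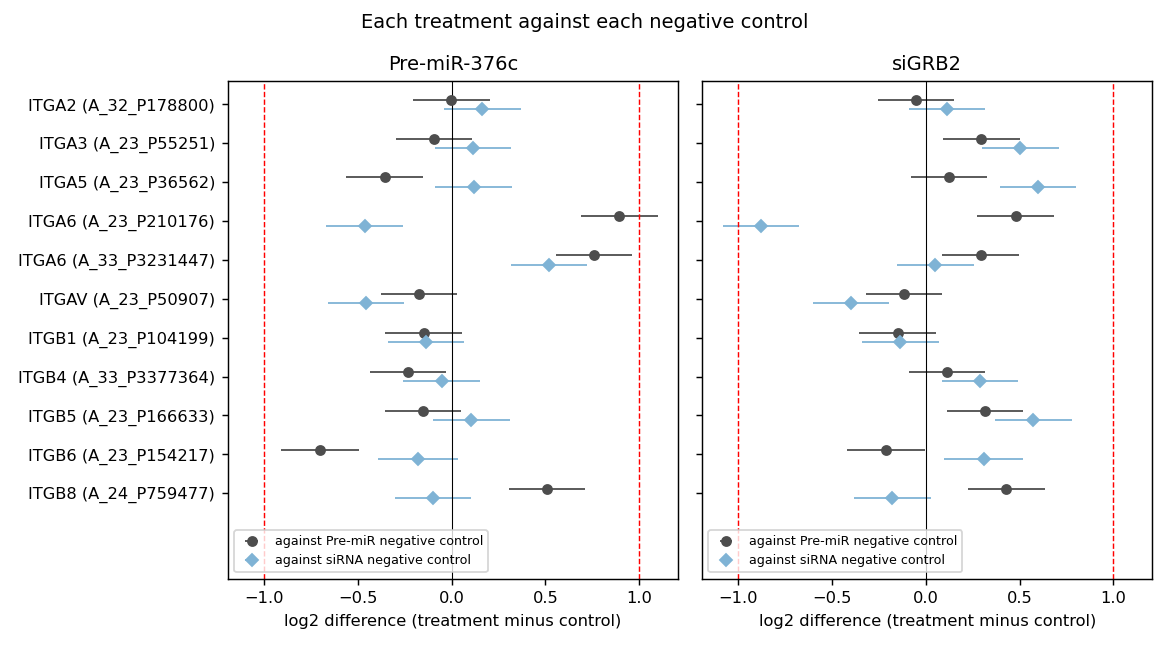
Log2 differences (x axis) of Pre-miR-376c and of siGRB2 from each negative control for the 11 integrin probes, with the combined scanner error as bars and dashed lines at 2-fold. No point reaches a dashed line, and the ITGA6 probe A_23_P210176 lies on opposite sides of 0 for the 2 controls in both panels.

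Over both controls, siGRB2 lay above each by more than the error for 2 of the 11 probes, ITGA3 and ITGB5 (14.7% of all probes detected on all 4 arrays), and below each for 0 (7.54%). Pre-miR-376c lay above each for 1 of the 11, ITGA6 A_33_P3231447 (10.9% of all probes), and below each for 0 (9.94%). The shares of integrin probes above both controls were thus near those of all probes. For ITGA3 and ITGB5 the sign of both differences turned only with normexp background correction (for ITGA3, −0.40 and −0.61), under which 7 spots of very high background entered the fit of the siGRB2 array, and for ITGA6 A_33_P3231447 no scaling or background setting turned either sign. Most neighbouring levels could not be ordered: of the 33 steps between neighbouring arrays over the 11 probes, 21 were within the scanner error. The siRNA negative control was the highest or lowest array for 7 of the 11 probes (3 highest and 4 lowest), as it was for 75.4% of all probes detected on all 4 arrays. The median range of a probe over the 4 arrays was 0.57 for the integrins and 0.56 for all detected probes, and without the siRNA negative control it was 0.47 and 0.31.

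The median log2 difference of the 11 probes was −0.15 with Pre-miR-376c against its control, where the median of all detected probes was −0.03, and 0.11 with siGRB2 against its control, where that of all was 0.15. Scaling to the array median in place of the 75th percentile shifted the median of all probes detected on all 4 arrays by 0.11 for Pre-miR-376c, by −0.28 for siGRB2 and by 0.27 between the controls. It also turned the split of all called probes with siGRB2 from 1567 higher and 727 lower to 679 higher and 1916 lower. The median of all probes detected on all 4 arrays was then subtracted from the integrin differences. This left an integrin median of −0.12 in the Pre-miR-376c comparison and −0.04 in the siGRB2 comparison. Median scaling cannot change these values, because it shifts every probe of an array by the same constant. Quantile normalization can change them. It gave −0.18 in the Pre-miR-376c comparison and 0.016 in the siGRB2 comparison, where the sign turned. On this relative scale the differences of ITGA6 A_23_P210176 with Pre-miR-376c were 0.85 to 0.92 against the Pre-miR and −0.56 to −0.36 against the siRNA negative control, over the scalings and background settings other than normexp with all spots. Those of ITGB6 were −0.68 to −0.52 and −0.40 to −0.22. Among all probes, the differences of Pre-miR-376c from the Pre-miR negative control stood at percentiles 98.9 and 98.3 for the probes of ITGA6, 95.1 for ITGB8 and 3.64 for ITGB6. The differences from the siRNA negative control stood at percentiles 16.1 and 82.2 for ITGA6, 35.6 for ITGB8 and 30.4 for ITGB6.

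**Figure D4:**
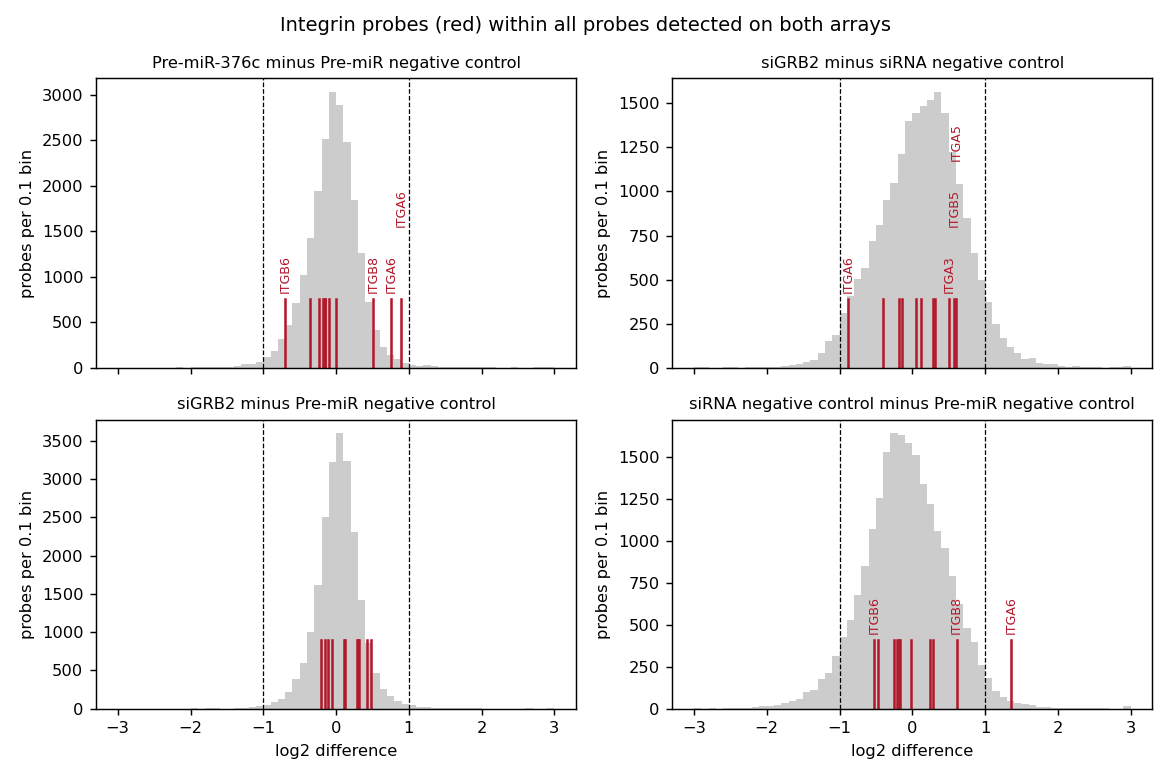
Numbers of probes per 0.1 bin of log2 difference (grey, probes detected on both arrays, with values beyond the axis drawn in the outermost bins) and the 11 integrin probes (red lines, named beyond 0.5) in 4 comparisons. The 1 red line beyond a dashed 2-fold line is ITGA6 (1.36) between the negative controls.

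Of the 16 other integrin subunits, which include those of leukocytes, platelets and mesenchymal cells, 9 were detected on all 4 arrays. With Pre-miR-376c 0 of 12 probes tested were called against its own control and 0 of 10 against the siRNA negative control. With siGRB2 against its own control, 1 of 11 probes was called higher, ITGA9 (1.21, beside 6.71% of all probes), and 1 lower, ITGA1 (−1.12, beside 3.11%), and against the Pre-miR negative control they were at 0.20 and −0.89, with 0 probes called. Of the 17 integrin ligands, 14 were detected on all 4 arrays. With Pre-miR-376c, of 18 probes tested 0 were at least 2-fold higher (1.57% of all probes) and 2 lower (1.47%): COL1A1, a fibrillar collagen chain (−1.01), and 1 of 2 probes of THBS1, thrombospondin 1 (−1.37, while the other probe was at −0.72). Against the siRNA negative control these were at −0.63 and −0.24. With siGRB2 no ligand probe was called against either control. The ligands had a median of −0.26 in the Pre-miR-376c comparison and 0.26 for siGRB2 against the siRNA negative control.

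Of the 25 focal adhesion genes, which include those of proteins that link integrins to actin, 24 were detected on all 4 arrays. With Pre-miR-376c 1 of 32 probes was called lower, a probe of LIMS2 (−1.11, and −1.16 against the siRNA negative control), with 1.47% of all probes called lower and a list median of −0.18. The other LIMS2 probe was detected on 1 array only and gave a bound of −0.03 against the Pre-miR negative control. With siGRB2 against its own control 4 of 31 probes were at least 2-fold higher (6.71% of all probes) and 0 lower (3.11%): ZYX (zyxin, 1.22), ACTN4 (an alpha-actinin, 1.13) and 1 of 2 probes each of PXN (paxillin, 1.12) and FLNA (filamin A, 1.11). Against the Pre-miR negative control 0 of 32 were called, with ZYX at 0.38, ACTN4 at 0.28, PXN at −0.04 and FLNA at −0.31. With Pre-miR-376c against the siRNA negative control these 4 probes were at 0.47, 0.56, 0.33 and 0.58. Of the hemidesmosome and membrane partners, 10 of 11 genes had a probe (CD63 had none) and all 10 were detected on all 4 arrays. Against the Pre-miR negative control, 0 of 14 probes were called with either treatment. Against the siRNA negative control, both treatments called the same 2 probes of 14, SLC3A2, which binds beta subunits, higher and COL17A1, the collagen of hemidesmosomes, lower. Of all probes, 6.71% were called higher and 3.11% lower with siGRB2, and 3.92% and 3.35% with Pre-miR-376c. Both comparisons subtract the same control array, so the shared calls are not independent. SLC3A2 was at 1.12 with siGRB2 and 1.31 with Pre-miR-376c against that control, and at −0.02 and 0.18 against the Pre-miR negative control. COL17A1 was at −1.26 with siGRB2 and −1.34 with Pre-miR-376c against the siRNA negative control, and at −0.45 and −0.52 against the Pre-miR negative control. No list gene was called with siGRB2 against both controls, and the genes called against the siRNA negative control alone were named after their values were seen.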

How the data were processed

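The authors deposited the spot intensities of 4 single-dye Agilent arrays (Feature Extraction 10.7.3.1, build hg19 in the header), already background-subtracted. They also deposited a log2 table, and the paper states a 75th percentile normalization. Its columns equalled the scanner values of a probe minus a constant, within 0.01. The constants, 10.28 to 11.00, were not the 75th percentiles used here, and the gap differed between arrays. The deposited values shifted the median difference of all probes detected on all 4 arrays by 0.04 for Pre-miR-376c against its control. The shift was −0.08 for siGRB2 against its control and 0.07 between the controls. Log2 processed intensities were shifted to each array's 75th percentile over non-control spots (signal 1719 to 2689), spots that carry an outlier flag (289 to 329 an array) were dropped, and the remaining spots of a probe averaged. A probe was detected when over 0.5 of its spots were well above background, and a probe detected on 1 of 2 arrays entered as a bound. Detected probes numbered 21823 to 24132 per array. All arrays shared 1 slide and 1 scan. Gene names came from accessions through RefSeq (GRCh38.p14), for 25422 of 34127 probes. With 1 array per group there was no test, and precision is limited by the number of arrays. The integrin genes and the gene lists were chosen with earlier results of these data known. All probes of the 10 genes and GRB2 were named, and list genes only past 2-fold against their own control and, for siGRB2, against both, with exceptions said in the text. The calculation was tested on simulated data with changes well past 2-fold. It was not tested on differences below 2-fold, such as those of the integrins with either treatment. Tools were Python 3.11.15, numpy 2.4.6, pandas 2.3.3, R 4.3.3 and limma 3.58.1. The other settings tried were scaling by quantiles, by the median or by a percentile of the probes detected throughout, background correction by normexp (with an offset of 50, on median spot intensities), the deposited log2 values, outlier spots kept, both arrays detected, 1.5-fold and 3-fold limits, the mean per gene, and each treatment against the other control or both.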

Additional observations from a re-analysis of the deposited data

How the results depend on the processing

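With 1 array per group, 1 spot per probe for 9 of the 11 integrin probes and no replicate, the values limit what can be said to differences between arrays. The 1 called difference, ITGA6 A_23_P210176 between the negative controls, kept its sign under all 8 alternatives. No treatment difference was called, and signs of those did turn. Against the other negative control the sign turned for 6 of the 11 probes with Pre-miR-376c and for 4 with siGRB2. Normexp background correction with all spots turned 4 with siGRB2. Scaling to the array median gave 1 integrin probe at least 2-fold higher with Pre-miR-376c (median difference of the 11 probes −0.036), 1 lower with siGRB2 (median −0.17) and a median of 0.11 between the controls. A 75th percentile over probes detected on all 4 arrays gave a median of −0.24 between the controls. Normexp background correction gave 2 higher and 2 lower with siGRB2 and a median of −0.40. The median of all probes detected on all 4 arrays was then 1.03. An alternative without spots of over 10 times the median background was chosen after seeing the data. It gave 0 higher, 0 lower and an integrin median of 0.09, beside 0.11 for all probes detected on all 4 arrays. The deposited log2 values gave medians of 0.034 with siGRB2 and −0.093 between the controls. A 1.5-fold limit gave 2 higher and 1 lower with Pre-miR-376c, 1 higher and 1 lower with siGRB2 and 2 higher between the controls, where a 3-fold limit gave 0 and the mean per gene gave 0. The mean per gene gave a median of 0.20 with siGRB2. For Pre-miR-376c the median was −0.053 against the other negative control and −0.023 against the mean of both. Calls among all probes are given only for siGRB2 under median scaling, so the other counts here have no share beside them. These counts are not read as results about the integrins. The smallest differences past 1.5-fold were those of ITGB6 with Pre-miR-376c, ITGA5 with siGRB2 and ITGB8 between the controls. Of all probes detected on both arrays, 5.75%, 31.0% and 27.0% differed by more in size. The cause of the changes between settings was not tested. Quantile normalization changed none of the 2-fold counts. Kept outlier spots and the rule of detection on both arrays changed neither counts nor medians. No paired analysis was possible because each group has 1 array.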

Other observations

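The 3 genes whose pattern over the 4 arrays, each centred on its own mean, was nearest to that of ITGA6 A_23_P210176 among 17437 probes were ATP6V0E2-AS1 (distance 0.10 on the log2 scale), MMS22L (0.11) and BTG3 (0.13), and 348 probes lay within 0.5. The distances rest on 4 arrays. ITGA6 was the 1 integrin whose probe of highest mean level spanned over 1 on the log2 scale. Of the integrin subunits best known from leukocytes, ITGB2, ITGB7, ITGAM and ITGAE were detected on all 4 arrays, while no probe of ITGAL, ITGAX and ITGA4 was detected on any.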
